A study of Xenopus laevis with 30 samples.

Results

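Depletion of ribosomal RNA was examined in Xenopus laevis animal cap explants that carried the Sf3b4 antisense morpholino, by setting each depleted library against the undepleted library of the same number. All 3 depleted and all 3 undepleted libraries of this treatment were used, 15 of the 30 sequencing lanes of the series, and all 49109 entries of the count tables. The explants, here called NWS, came from embryos injected at the 2-cell stage with noggin and wnt8 mRNA and with Sf3b4MO. The explants called NW received both mRNAs without the morpholino, and their 6 libraries serve here only as a second place in which to read the same entries. In both treatments the caps were cut at stage 8 to 9 and kept for 8 hours in a defined medium, and total RNA of individual explants was extracted. The labels give no age beyond the stage, no strain, no depletion method, and no statement that both preparations of a library number came from one RNA extract. All 12 libraries carry the same pair of injected mRNAs, and none comes from uninjected caps. In both treatments the depleted libraries were sequenced on other lanes than the undepleted ones, so preparation and lane cannot be told apart. Wording such as after depletion therefore compares depleted with undepleted libraries, lane included. The main p-values come from fits with the library number as a block. They set the difference between preparations against its variation among library numbers, which the labels call biological replicates. The fit estimates that variation with information shared across entries. A very small p-value or standard error of an entry therefore does not measure the agreement of its own 3 pairs alone. The spread in level between library numbers is absorbed by the block.

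Ribosomal RNA makes up most of the RNA of a cell, and libraries made from total RNA spend most of their reads on it unless it is removed first. Depletion takes out the RNAs that its probes or enzymes recognise, and is meant to leave messenger RNAs, with or without a poly(A) tail, in their original proportions. Animal caps are the prospective ectoderm of the blastula. Noggin blocks BMP signals and Wnt8 activates Wnt signals, and together they turn caps toward neural crest, while Sf3b4 is a subunit of the SF3b complex that recognises the branch point in splicing. No sequence of these entries is printed, because the sources used here hold none.

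A few entries took a smaller share of counts in the depleted libraries, but still more than all other entries together. The 5 dominant entries each held more than 0.5% of the counts of at least 1 NWS library: LOC108705792, ccdc50.L, LOC108710811, smad4.1.S and Xelaev18003734m. Together they held 90.9%, 97.8% and 91.4% of the counts of undepleted libraries 1, 2 and 3. In depleted libraries 1, 2 and 3 they held 63.9%, 92.5% and 66.8%. Library 2 was the highest in both preparations, and its share fell by 5.30 percentage points against 27.1 in library 1 and 24.5 in library 3. The share left for all other entries was 9.07%, 2.16% and 8.64% before and 36.1%, 7.46% and 33.2% after depletion. That share rose in 3 of 3 pairs, by a factor of 3.76 ± 0.277 (SD, n = 3 pairs). The exact two-sided sign-flip permutation test gave p = 0.25, the smallest that 3 pairs allow.

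**Figure D1:**
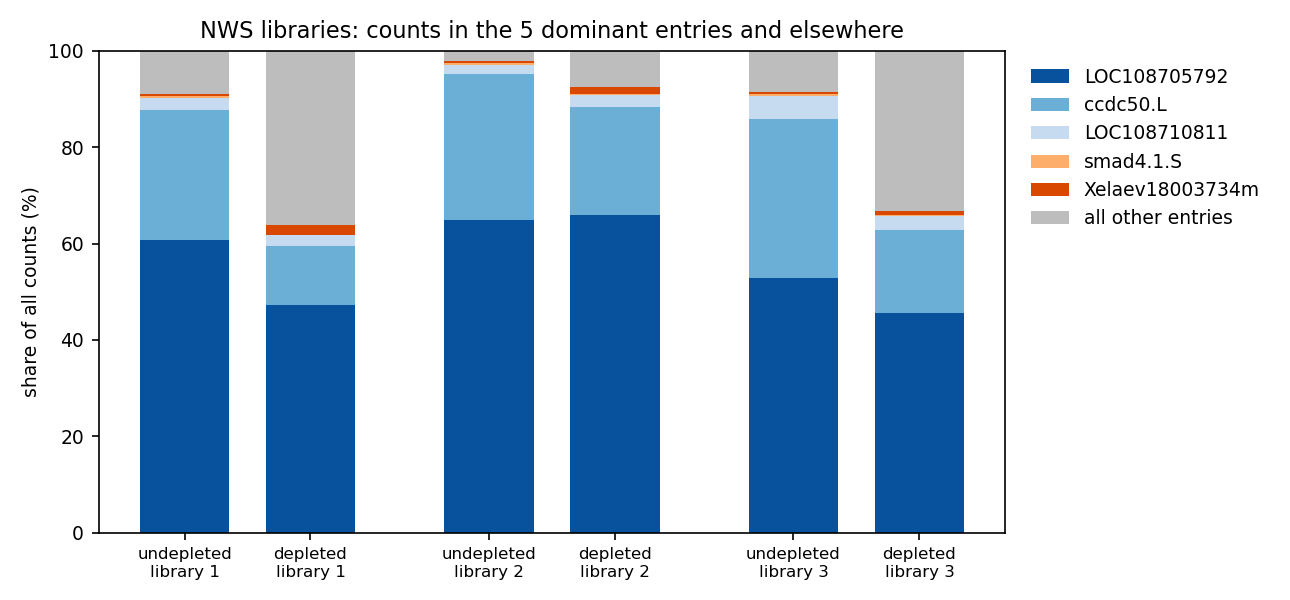
Share of all counts (%, stacked bars from 0 to 100) held by each of the 5 dominant entries and by all other entries in the 6 NWS libraries, ordered by library number. All other entries, in grey, take 9.07%, 2.16% and 8.64% without depletion and 36.1%, 7.46% and 33.2% with it.

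A larger share was not always a larger number of counts. The undepleted libraries held 4120814, 4032226 and 3796665 counts, and the depleted ones 351902, 2722942 and 840220. Outside the 5 dominant entries this left 373612, 87172 and 327925 counts without depletion and 127172, 203123 and 278743 with it. Only library 2 gained usable counts, by a factor of 2.33, while libraries 1 and 3 kept 0.340 and 0.850 of theirs (exact sign-flip permutation test, p = 0.75). In NW the same quantity was 1.23, 1.19 and 1.37 times as large after depletion, higher in 3 of 3 pairs. These counts are sums over lanes, 3 lanes for each depleted library and 2 for each undepleted one in both treatments. The comparison of raw counts is therefore not one of equal sequencing, and a gain in counts cannot be credited to depletion alone. When all NWS libraries were thinned to 87172 counts outside the dominant entries, the expected number of entries with at least 1 count was 11672, 9123 and 12628 without and 10701, 8921 and 11947 with depletion. The depleted library had fewer entries in 3 of 3 pairs, with a mean difference of -618 (exact sign-flip permutation test, p = 0.25). Counting only entries with at least 3 counts, the mean difference was -26.8 and pair 1 alone had fewer (exact sign-flip permutation test, p = 1).

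Very few entries passed a test of change against the rest. The median standard error was 0.75 on the log2 scale, so failing to pass does not show that an entry was unchanged. Of the 49109 entries, 24469 had a count in some NWS library and 5979 passed the filter on low counts and were tested. Of these, 10 passed at an adjusted p under 0.05 (edgeR quasi-likelihood test with the library number as a block, Benjamini-Hochberg adjustment), which is 0.167% of those tested. Of the 10, 9 fell after depletion (0.151%) and 1 rose (0.0167%). At an unadjusted p under 0.05 there were 210, of which 115 were higher and 95 lower. Fold changes are given here after TMM normalisation, so they are relative to the bulk of entries, whose median log2 fold change was 0.02. The middle 50% of tested entries lay between -0.43 and 0.42, and the smallest change that passed was 2.09 on the log2 scale. Without the library-number block none passed, and 76 had an unadjusted p under 0.05. The 5 dominant entries include 4 of the 10, and with them removed before normalisation 4 of the other 6 passed. DESeq2 called 7, losing hspa9.S and the pair with the most counts, LOC108705792 and ccdc50.L.

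**Figure D2:**
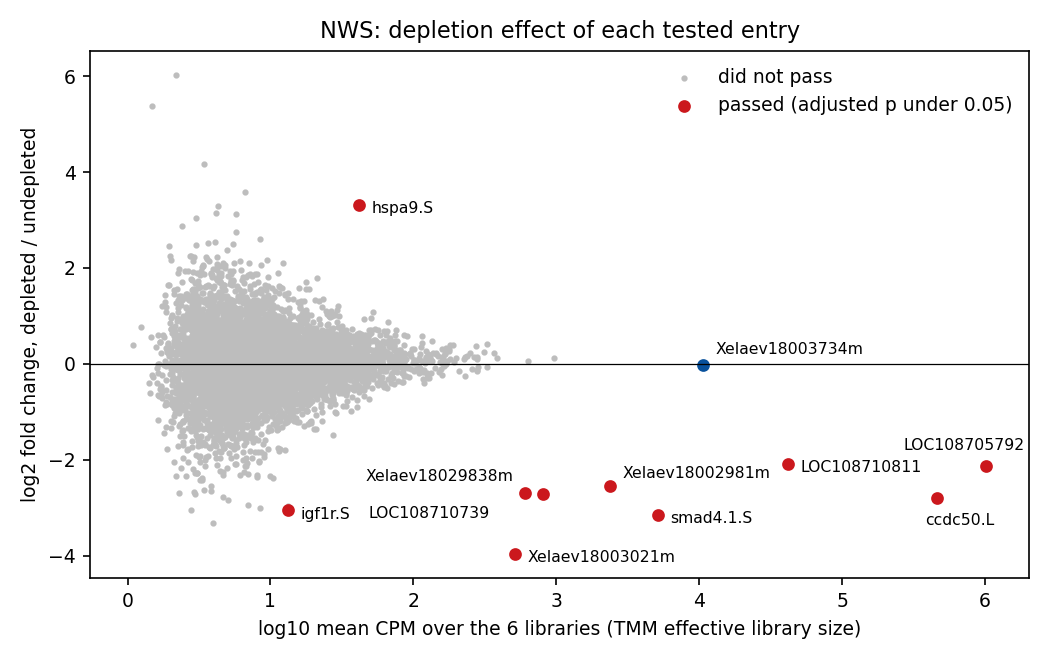
Log2 fold change of depleted over undepleted NWS libraries (vertical axis) against the log10 of mean CPM over the 6 libraries (horizontal axis) for the 5979 tested entries. Red points are the 10 that passed, of which 8 stand apart at -2.09 to -3.97 and at high CPM, and the blue point is Xelaev18003734m, an abundant entry at -0.02.

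The entry with the most counts was LOC108705792, which the reference gene table used here does not annotate. It had 2506057, 2612303 and 2009828 counts in undepleted libraries 1, 2 and 3, and 166513, 1797047 and 382558 in the depleted ones. Its share of all counts went from 60.8%, 64.8% and 52.9% to 47.3%, 66.0% and 45.5%, lower in libraries 1 and 3 and slightly higher in library 2. Relative to the bulk of entries it fell 4.39-fold (log2 fold change -2.14 ± 0.21, SE, adjusted p = 3.05e-10, edgeR), and the pairs gave -2.38, -1.82 and -2.21. DESeq2 gave -2.13 for LOC108705792 but did not call it (adjusted p = 0.9999), while limma-voom gave -2.14 and called it (adjusted p = 7.28e-23).

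The second entry, ccdc50.L, is one homeolog of a coiled-coil domain protein gene in this allotetraploid frog, in which most genes have an L and an S copy. It had 1111681, 1221781 and 1252070 counts without depletion and 43105, 606848 and 144408 with it, or 27.0%, 30.3% and 33.0% against 12.2%, 22.3% and 17.2% of all counts. Its share was lower after depletion in every pair, and the groups did not overlap in share. In CPM they did, with depleted library 2 at 332816 and undepleted library 1 at 320154. The fall was 6.93-fold (log2 fold change -2.79 ± 0.22, adjusted p = 1.66e-13, edgeR). DESeq2 gave -2.79 for ccdc50.L without calling it (adjusted p = 0.9999), and limma-voom gave -2.80 (adjusted p = 6.47e-26). LOC108705792 was therefore left in a larger proportion: the number of its counts per count of ccdc50.L was 2.25, 2.14 and 1.61 before and 3.86, 2.96 and 2.65 after depletion. This ratio rose in 3 of 3 pairs in NWS (exact sign-flip permutation test, p = 0.25), and in NW it went from 1.47, 1.84 and 1.72 to 3.82, 3.23 and 2.13.

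The other homeolog did not take part in this signal. Per kilobase of entry length, ccdc50.L stood at 23682 to 1068687 CPM over the 6 NWS libraries and ccdc50.S at 0 to 1.18 CPM, with at most 11 counts in a library. Likewise smad4.1.S, annotated by name as a copy of the co-Smad of the TGF-beta and BMP pathways, stood at 65.4 to 3273 CPM per kilobase, and smad4.1.L at 0.554 to 3.77. The smad4.1.L copy had a log2 fold change of 0.67 ± 0.62 (adjusted p = 0.999, edgeR). The counts of smad4.1.S were 12309, 12441 and 21390 without and 396, 4721 and 1857 with depletion, an 8.85-fold fall (log2 fold change -3.15 ± 0.20, adjusted p = 1.02e-16, edgeR). The groups did not overlap, and depleted library 1 was the lowest.

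LOC108710811 had 100030, 79883 and 175933 counts without and 7623, 70676 and 25112 with depletion. It took 2.43%, 1.98% and 4.63% of all counts before and 2.17%, 2.60% and 2.99% after, so that its share was lower in libraries 1 and 3 and higher in library 2. Relative to the bulk it fell 4.25-fold (log2 fold change -2.09 ± 0.20, adjusted p = 1.05e-10, edgeR), the least of the entries that passed.

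Other entries, none with an annotated role, fell at lower abundance. Xelaev18003021m fell most, 15.6-fold, from 1499, 1352 and 1864 counts to 19, 264 and 123 (log2 fold change -3.97 ± 0.24, adjusted p = 3.17e-17, edgeR). Xelaev18002981m went from 7855, 2956 and 17607 counts to 452, 1853 and 1798, a 5.85-fold fall. Its depleted libraries were all below its undepleted ones in counts and in CPM, though not in share of all counts. Xelaev18029838m went from 2028, 2470 and 481 counts to 110, 1261 and 42 and fell 6.53-fold, and LOC108710739 went from 2806, 1706 and 241 to 108, 625 and 49 and fell 6.47-fold. In these last entries counts overlapped between the preparations, because library 3 was low in both, while each pair gave a fall: log2 ratios of -2.67, -2.25 and -3.34 for Xelaev18029838m and of -3.16, -2.73 and -2.12 for LOC108710739.

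**Figure D3:**
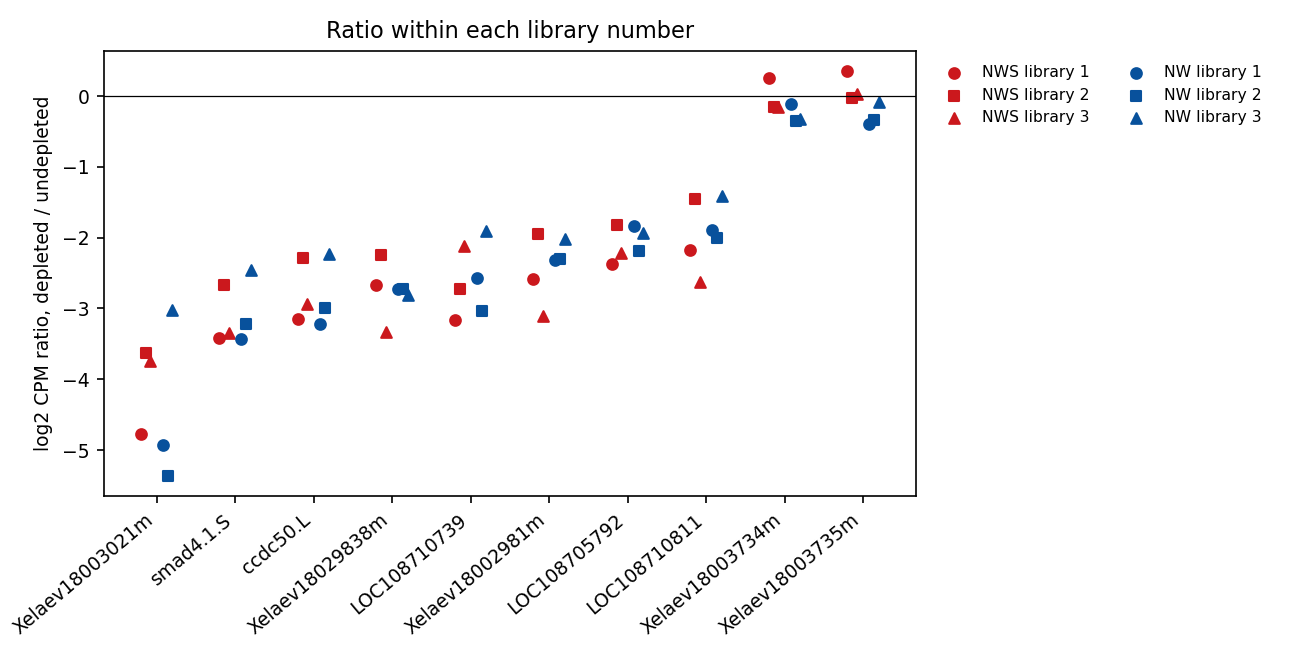
Log2 ratio of CPM, depleted over undepleted, within each library number (points; NWS red, NW blue; circle, square and triangle for libraries 1, 2 and 3) for the 8 entries that fell in both treatments and for Xelaev18003734m and Xelaev18003735m. All 48 ratios of the first 8 entries lie below -1.4. Those of the last pair lie between -0.39 and 0.36, and in NW all of them are below 0.

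The 8 entries named so far that fell also passed and fell in NW, where 11 of 10633 entries passed (0.103%). They are 80.0% of the calls in NWS and 72.7% of those in NW. In NW their log2 fold changes were -1.99 for LOC108705792, -2.82 for ccdc50.L, -1.77 for LOC108710811, -3.03 for smad4.1.S and -4.41 for Xelaev18003021m. The remaining ones stood at -2.75 for Xelaev18029838m, -2.51 for LOC108710739 and -2.21 for Xelaev18002981m. No entry passed the test of the difference in depletion effect between NWS and NW (0 of 13224, or 0%, edgeR interaction). There, 232 had an unadjusted p under 0.05, and DESeq2 and limma-voom also called 0. Without library 2, LOC108710811 and hspa9.S passed that test, and without library 3 hspa9.S did. Together the 8 entries held 90.9%, 97.6% and 91.6% of the counts before and 62.0%, 91.2% and 66.2% after depletion in NWS. Within NWS the fall was smallest in library 2 for 7 of the 8, the exception being LOC108710739.

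These entries ranged from 132 to 5051 bases in length, and most of them lay in the shortest quintile of tested entries. Whether length bears on the fall was not tested. The entry lengths recovered from the deposited counts and FPKM were 132 bases for LOC108710739, 261 for Xelaev18029838m, 868 for LOC108710811, 913 for LOC108705792, 946 for Xelaev18002981m, 1094 for Xelaev18003021m, 1519 for ccdc50.L and 5051 for smad4.1.S. Of the 9 entries that fell, 7 lay in the shortest quintile of tested entries, those of up to 2160 bases, and the other 2 in the quintile of 4462 to 6490 bases. Over all entries the median log2 fold change by quintile of length, from the shortest to the longest, was -0.06, 0.02, 0.01, 0.05 and 0.06. Only ccdc50.L of the 8 is listed in the reference gene table, as protein coding, and none is annotated there as ribosomal RNA. The mitochondrial 12S and 16S ribosomal RNA entries and the 13 mitochondrial protein genes had 0 counts in all 12 libraries of both treatments, so their depletion could not be read. In the NWS libraries a count of 0 allows a share of the assigned counts of up to 7.28e-05% to 8.53e-04%, counting error only. Whether reads of these RNAs were aligned or assigned could not be checked, so this is no limit on their presence.

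A pair of abundant entries stayed near the bulk of the entries in both preparations. Xelaev18003734m had 17125, 18646 and 9519 counts without and 7093, 40527 and 7542 with depletion, and its share of all counts was larger in every depleted library, 2.02%, 1.49% and 0.898% against 0.416%, 0.462% and 0.251%. Its log2 fold change was -0.02 ± 0.18 (adjusted p = 0.999, edgeR), with pair ratios of 0.26, -0.16 and -0.15. Xelaev18003735m had 1472, 1578 and 991 counts without and 650, 3758 and 897 with depletion, and a log2 fold change of 0.12 ± 0.19. In NW the log2 fold changes were -0.26 ± 0.14 for Xelaev18003734m and -0.27 ± 0.20 for Xelaev18003735m. There both were lower in every pair, and neither passed. In NWS the number of counts of Xelaev18003734m per count of Xelaev18003735m was 11.6, 11.8 and 9.61 without and 10.9, 10.8 and 8.41 with depletion. Among other abundant RNAs, rn7sk, the small nuclear 7SK RNA that holds back the elongation factor P-TEFb, stood at 57.3, 215 and 57.5 CPM before and 43.4, 239 and 45.7 CPM after depletion. Library 2 was highest in both preparations, and the log2 fold change was -0.19 ± 0.25. The histone gene hist2h3c.L stood at 400, 225 and 251 CPM before and 321, 274 and 190 CPM after depletion, with a log2 fold change of -0.15 ± 0.21. Histone genes have many near-identical copies, so counts of single copies are uncertain.

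The remaining calls rested on few counts. The S copy of igf1r, which encodes a receptor of insulin-like growth factors, had 71, 35 and 17 counts without and 4, 5 and 3 with depletion. The groups did not overlap in counts or CPM but did in share of all counts. Relative to the bulk igf1r.S fell 8.34-fold (log2 fold change -3.06 ± 0.66, adjusted p = 0.0169, edgeR). Its L copy, listed as LOC108711478, had a log2 fold change of 0.95 ± 0.60, and in NW igf1r.S had one of -0.28. The call was lost without library 1 (adjusted p = 0.158), without library 2 (adjusted p = 0.955), with limma-voom (adjusted p = 0.0915) and in a fit of all 12 libraries (adjusted p = 0.196). The only entry that rose was hspa9.S, which encodes a chaperone of the mitochondrial HSP70 family. It had 15, 0 and 17 counts without and 271, 13 and 16 with depletion, so that depleted library 1 held nearly all of them. Its log2 fold change was 3.32 ± 0.69 (adjusted p = 0.0116, edgeR), and without library 1 it was 1.26 (adjusted p = 0.9996). The call was also lost without library 2 (3.28, adjusted p = 0.955, edgeR) and was kept without library 3 (5.79). In NW hspa9.S had a log2 fold change of 0.23.

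Some entries that passed in NW were weak or untested in NWS. Xelaev18016727m (log2 fold change -6.67 in NW) had 53, 2 and 49 counts without and 1, 6 and 0 with depletion in NWS and did not pass the filter there. It was lower in pairs 1 and 3 and not in pair 2, and in a fit of all 12 libraries it was called in NWS as well. Xelaev18034099m (-8.12 in NW) had 11, 20 and 30 counts without and 0, 36 and 0 with depletion in NWS, and a log2 fold change of -2.35 ± 0.88 (adjusted p = 0.999, edgeR). The only NW call that rose was LOC108716943, listed as ccdc150.L (log2 fold change 2.00 in NW, adjusted p = 0.0386, edgeR). In NWS it had 23, 3 and 6 counts without and 9, 9 and 7 with depletion, and a log2 fold change of 0.29 ± 0.88. Of 6910 entries with a count in all 3 undepleted NWS libraries, 43 had 0 counts in all 3 depleted ones and at least 10 in total. In the reverse direction there were 9 of 6463. These are raw counts at unequal depth, with no test.

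The genes of the injected mRNAs and of the morpholino target had few counts throughout. The L copy of sf3b4 had 56, 4 and 37 counts without and 14, 21 and 4 with depletion, and the S copy had 47, 7 and 17 without and 7, 9 and 4 with it. Neither passed (log2 fold changes -0.77 ± 0.69 and -1.31 ± 0.78). A morpholino acts on an RNA's translation or splicing, so its target's level does not check the injection, and NWS libraries of both preparations carry it. The BMP antagonist gene nog.L had a log2 fold change of -0.99 ± 0.54 and the Wnt ligand gene wnt8a.L one of -0.48 ± 0.82. All 4 tested members of this group were lower and none passed.

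No tested messenger RNA of the translation apparatus passed, and the genes for cytosolic ribosomal proteins had a lower median than all tested entries. Some lists with fewer tested members, given below, had lower medians still. Of 131 tested genes for cytosolic ribosomal proteins, the protein part of the ribosome, 40 were higher and 91 lower after depletion, and none passed. Their median log2 fold change was -0.24, against 0.02 over all 5979 tested entries, of which 3047 were higher and 2932 lower. Their summed level was 4167, 1496 and 2604 CPM without and 3716, 1308 and 2289 CPM with depletion, lower in 3 of 3 pairs by log2 ratios of -0.17, -0.19 and -0.19. In NW 43 were higher and 90 lower of 133, with a median of -0.20. Leaving out 1 library in turn gave medians of -0.33 to -0.25 in NWS. The most abundant members did not all share this direction: rps12.L stood at 142, 38.5 and 23.4 CPM before and 210, 52.7 and 20.3 CPM after depletion (log2 fold change 0.29 ± 0.28). Another, rpl3.L, had a log2 fold change of -0.11 ± 0.28. Genes of this class are short, and the shortest quintile of all entries had a median of -0.06.

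Factors that build or use ribosomes did not share that median. Of 79 genes of ribosome biogenesis and the nucleolus, 49 were higher and 30 lower, with a median of 0.09, and none passed. That median ranged from -0.0040 to 0.04 on leaving out 1 library. The nucleolar protein gene ncl.S stood at 249, 308 and 305 CPM before and 292, 382 and 345 CPM after depletion, a log2 fold change of 0.24 ± 0.20. The pseudouridine synthase gene dkc1.L stood at 268, 141 and 75.2 CPM before and 290, 133 and 83.3 CPM after, so that its order over libraries was the same in both preparations. Of 59 translation factor genes, 28 were higher and 31 lower, with a median of -0.01. One of them, eif3a.L, which encodes the large subunit of initiation factor 3, had a log2 fold change of 0.24 ± 0.21. Of 75 genes of very large proteins 42 were higher and 33 lower, with a median of 0.08. The chromatin remodeller gene chd7.S, one of these, stood at 151, 282 and 231 CPM before and 203, 310 and 210 CPM after depletion.

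**Figure D4:**
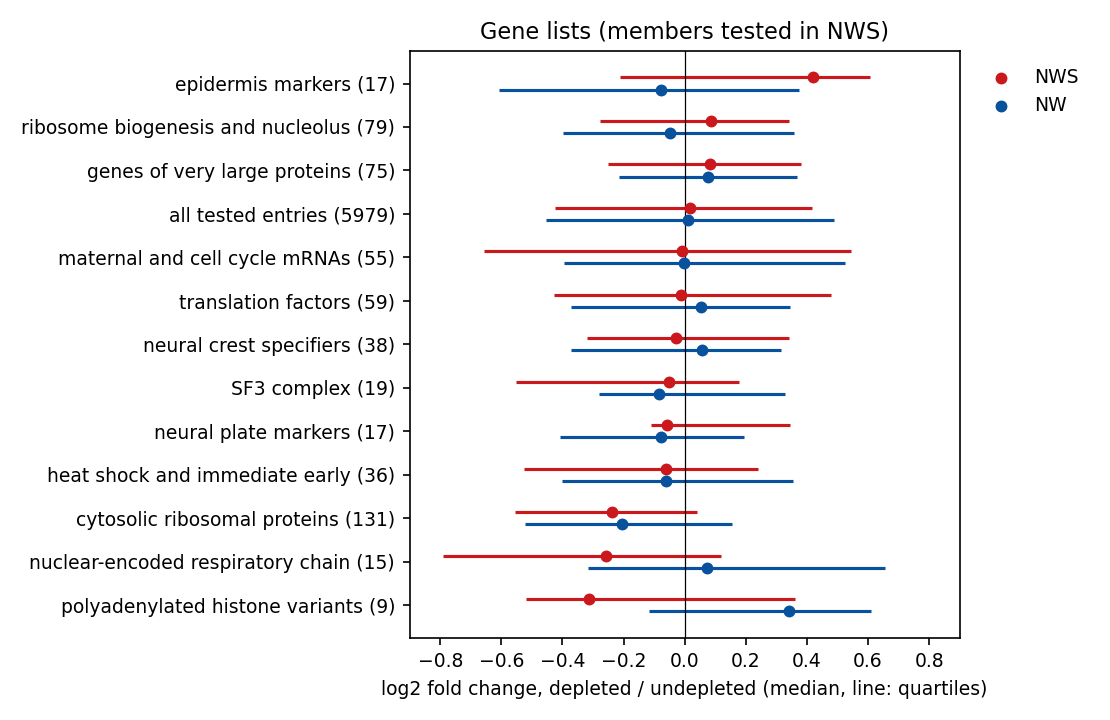
Median log2 fold change, depleted over undepleted (points, with lines for the quartiles), of the tested members of each gene list with at least 9 tested members in NWS, for NWS (red) and NW (blue). The 131 cytosolic ribosomal protein genes have a median of -0.24 in NWS and -0.20 in NW, and all tested entries one of 0.02 and 0.01.

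Further lists held no called member other than hspa9.S, and several rest on few genes. Of the 12 lists with at least 9 tested members, 10 had a median that changed sign when some library was left out, the exceptions being cytosolic ribosomal proteins and polyadenylated histone variants. The 19 tested genes of the SF3 complex, to which Sf3b4 belongs, were split into 9 higher and 10 lower, with a median of -0.05. Of 15 nuclear genes of the respiratory chain, 4 were higher and 11 lower in NWS, with a median of -0.26, and the 50 tested in NW had a median of 0.07. Without library 1 the NWS median was 0.27, and without library 3 it was -0.84. The 9 genes of polyadenylated histone variants, which unlike the replication-dependent histones carry a poly(A) tail, had a median of -0.31 in NWS and the 12 in NW one of 0.34. Without library 3 the NWS median was -0.61. Of 55 maternal and cell cycle genes 26 were higher and 29 lower, with a median of -0.01. Of 36 heat shock and immediate early genes 16 were higher and 20 lower, with hspa9.S as the called one. The abundant chaperone gene hsp90ab1.S stood at 653, 675 and 516 CPM before and 752, 689 and 503 CPM after depletion, a log2 fold change of 0.07 ± 0.19. Apart from the neural crest, neural plate and epidermis markers given below, the remaining lists had 4 or fewer tested members each. Of these, mitochondrial ribosomal proteins had 4 tested members with a median of -0.59, and multiciliated cell markers had 3 with a median of 0.77. Glycolysis had 2 with a median of 0.18, and cement gland markers had 1, at -0.93. No endoderm marker was tested.

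Markers of neural crest, neural plate and epidermis were found in both preparations, at higher summed levels than those of mesoderm and endoderm. Neural crest specifiers summed to 1529, 927 and 988 CPM in undepleted and 1372, 979 and 982 CPM in depleted libraries, and of the 38 tested 18 were higher and 20 lower, with a median of -0.03. The complement gene c3.L, in Xenopus a marker of the early crest, stood at 267, 322 and 283 CPM before and at 277, 277 and 270 CPM after depletion. Neural plate markers summed to 265, 478 and 355 CPM before and 262, 446 and 345 CPM after, with 8 higher and 9 lower of 17. Mesoderm and muscle markers summed to 26.7 to 59.8 CPM before and 32.2 to 35.7 CPM after depletion, and endoderm markers to 2.88 to 12.2 and 2.19 to 14.2 CPM. The ranking above mesoderm did not extend to the multiciliated cell and cement gland lists. Multiciliated cell markers summed to 15.3, 42.5 and 32.2 CPM before and 22.5, 57.6 and 31.9 CPM after depletion, which overlaps mesoderm and muscle markers. Cement gland markers summed lower than mesoderm and muscle markers in every NWS library. Of the 46 mesoderm and 34 endoderm markers in the tables, 22 and 15 had any count in NWS. Of the 52 neural crest, 39 neural plate and 45 epidermis markers, 49, 34 and 36 did. For multiciliated cell and cement gland markers it was 26 of 39 and 8 of 11. The sums were not scaled to the number or length of list members, so lists of unlike size are compared.

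Epidermal markers separated library 1 from the others with either preparation. They summed to 728, 179 and 120 CPM without and 710, 166 and 173 CPM with depletion, with 10 higher and 7 lower of 17, a median of 0.42 in NWS and of -0.08 in NW. Library 1 was also the highest in NW, at 1350, 498 and 174 CPM without and 1159, 496 and 170 CPM with depletion. The NWS median was -0.01, 0.06 and 0.02 without library 1, 2 and 3, 0.04 with limma-voom, 0.05 without the block and -0.08 without the low-count filter. The desmosome gene dsp.L stood at 86.1, 23.9 and 21.0 CPM before and 54.2, 21.9 and 24.2 CPM after depletion (log2 fold change -0.21 ± 0.35). The keratin gene krt8.S stood at 39.2, 3.99 and 6.09 CPM before and 54.2, 14.8 and 18.8 CPM after (log2 fold change 1.18 ± 0.46, adjusted p = 0.999, edgeR). In such bulk samples more cells of a type and more RNA per cell cannot be told apart.

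**Figure D5:**
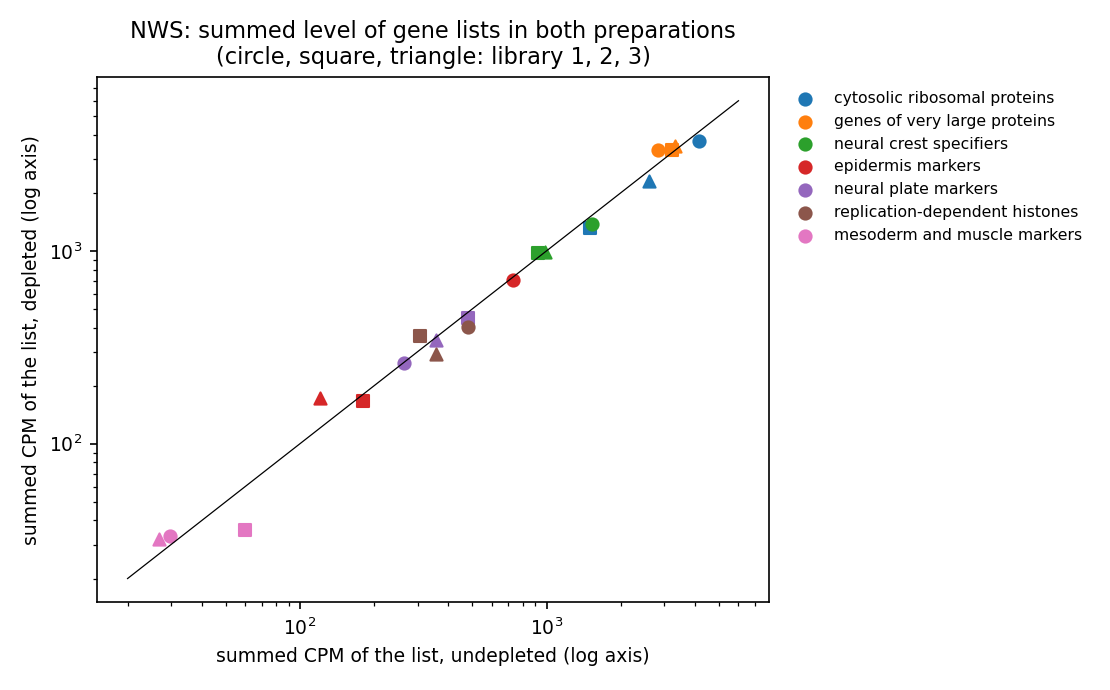
Summed CPM of gene lists in the depleted (vertical, log axis) against the undepleted NWS library of the same number (horizontal, log axis), with the line of equal levels. Colours are lists, and circles, squares and triangles are libraries 1, 2 and 3. Epidermis markers run from 120 to 728 CPM across undepleted libraries and library 3 lies farthest from the line among them, at 120 against 173 CPM.

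Differences between library numbers were larger than differences between preparations of one number. Over 1186 entries of the highest quintile by level, with dominant and fallen entries left out, the median absolute log2 difference between the preparations was 0.42, 0.50 and 0.26 for libraries 1, 2 and 3. Between libraries of different number it was 0.63 to 0.78 within undepleted and 0.71 to 0.79 within depleted libraries. The correlation of log2 CPM over 5974 entries was 0.732, 0.697 and 0.851 for libraries 1, 2 and 3 across preparations, and 0.562 to 0.602 across preparations for different numbers. Within a preparation it was 0.590 to 0.606 undepleted and 0.549 to 0.582 depleted. These are correlations across entries, which are not independent replicates, and they share the noise of low counts. The gene lrp2.L, which encodes the large endocytic receptor megalin, shows the pattern in one entry: 24.8, 270 and 234 CPM without and 46.7, 304 and 263 CPM with depletion.

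The standard errors limit how small a change could be seen. The median standard error of a log2 fold change was 0.75 over all tested entries, 1.096 in the lowest quintile by level and 0.38 in the highest. More than 2-fold differences were seen for 24.6% of the lowest quintile and 3.01% of the highest, while 14.6% of all tested entries exceeded this. A 2-fold removal of an ordinary gene was therefore not detectable for most entries with these libraries. How much of the error comes from depth and how much from the spread between explants was not tested.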

How the data were processed

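The submitters' processing notes name bcl2fastq, STAR, featureCounts and DESeq2, with no versions. The sources used here do not give the genome build, annotation, strand setting or treatment of multimapping reads. Raw counts per entry and library, with lanes added up, and FPKM values were deposited by the authors; the deposited FPKM served only to recover entry lengths (maximum deviation between libraries 1.40%). Groups and library numbers follow the run titles; the source names of the undepleted NWS lanes count replicates differently. The main test was edgeR's (version 4.0.16, R 4.3.3: TMM, filterByExpr with a minimum count of 10 on total counts, quasi-likelihood test, library number as a block, adjusted p under 0.05). The standard errors given are not printed by edgeR. Each is the absolute log2 fold change divided by the square root of the quasi-likelihood F statistic. CPM here use TMM effective library sizes. The filter sets one CPM threshold on total counts, so shallow depleted libraries need fewer counts to pass it. Tests were also run on simulated counts with the same fixed dispersion for all entries, and no statement here rests on those runs. DESeq2 1.42.0 and limma-voom 3.58.1 were alternatives.

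Library numbers were taken as pairs because the columns carry the same names in both tables. Deviations from the group means correlated at 0.384, 0.371 and 0.524 for equal numbers in NWS and at 0.296, 0.291 and 0.477 in NW, and at -0.147 to -0.277 for unequal numbers in NWS. Deviations cancel within a group, so positive values for equal numbers force negative ones on average for unequal numbers. The negative values are thus no separate evidence for the pairing. Of 49109 entries, 25709 names are symbols of the RefSeq gene table (assembly Xenopus_laevis_v10.1, names only), and 3698 LOC entries were given another symbol. The text names the dominant entries, those that passed, sf3b4, nog and wnt8a, and abundant members of each list; homeologs, Xelaev18003735m, rn7sk (also a list member) and the entries called only in NW were added after their values were seen. Members and lists were chosen with earlier results of these data known. Figures used Python 3.11.15 with matplotlib 3.10.9.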

Additional observations from a re-analysis of the deposited data

How the results depend on the processing

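Of the 10 entries that passed in NWS, 4 passed with the dominant entries left out (4 lower, 0 higher), which removes 4 of the 10 by construction. None passed with the 8 entries that fell in both treatments left out, an alternative chosen after seeing the data (0 lower, 0 higher; 159 at unadjusted p under 0.05, edgeR), where 2 were left that could pass. In both, igf1r.S and hspa9.S were lost. None passed without the replicate block (0 lower, 0 higher; 76 at unadjusted p under 0.05, edgeR). The single higher entry was also lost with a minimum count of 30 (0) and with DESeq2 (0). With the filter on effective library sizes, also chosen after seeing the data, all 10 passed, as without a filter. DESeq2 called 7, without LOC108705792, ccdc50.L and hspa9.S, and limma-voom 9, without igf1r.S. A fit of all 12 libraries called 10, with Xelaev18016727m in place of igf1r.S. Leaving out 1 library in turn gave 8 to 11 calls, 8 to 9 lower and 0 to 2 higher. In NW 11 calls became 6 with the dominant entries left out and 4 without the replicate block, and 10 to 11 on leaving out a library. The interaction gave 0 to 2 calls on leaving out a library. The cause of the other changes was not tested. No entry that passed changed direction under an alternative. Some uncalled values did, such as Xelaev18003734m (-0.02, and 0.07 without library 3) and the medians of 10 of 12 lists.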
